A study of Mus musculus with 6 samples.

Results

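The genes described here are 46 named regulators and structural proteins of G2 phase and mitosis, kept apart from the genes of DNA replication. They were taken from the array by name alone, as every probe set whose gene symbol in the platform annotation was exactly one of the 46. This found 104 of 45101 probe sets, for 44 of the 46 genes, and the rule itself uses no measured level. Ccnb1 (cyclin B1) had no probe set under its name, and Sgol2 had none because the annotation carries its newer name. That gene, Sgo2a, protects centromeric cohesion and was read outside the rule: its signal was 73.3, 56.6 and 52.8 on the positive arrays and 53.3, 68.2 and 54.1 on the negative arrays, a log2 difference of 0.05 (SE 0.31). Of the 104 probe sets, 82 passed the filter on dim signals, and all 44 genes kept at least 1.

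Entry into mitosis is driven by Cdk1 bound to cyclins A and B and switched on by Cdc25 phosphatases. Kinetochore proteins then attach chromosomes to a spindle built by kinesins and other microtubule proteins. The spindle checkpoint delays the anaphase promoting complex until all chromosomes are attached, and a contractile ring of actin and anillin divides the cell. In the ventral midbrain these messages mark cycling radial glia and neurogenic progenitors near the ventricle, while newborn neurons leave the cycle and lose them. A level in a sorted population therefore depends both on the share of dividing cells and on the message per dividing cell, and these arrays cannot tell fewer cells of a type from less RNA per cell.

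The study measured mRNA on 1 microarray per sample in ventral mesencephalon cells of mouse embryos at embryonic day 12.5, separated by flow cytometry. The positive group held 3 samples of GFP-positive cells from Ngn2-GFP mice of CD1/129 strain, labelled as midbrain dopaminergic progenitors. The negative group held 3 samples of GFP-negative cells from Lmx1a-GFP mice of C57BL/6 strain, labelled as a non-dopaminergic progenitor population. Ngn2 (Neurog2) is a proneural transcription factor of progenitors about to make neurons, and Lmx1a is a transcription factor of dopaminergic progenitors. The comparison shows how far the dividing-cell programme differed between these populations, but mouse line, strain, reporter and gate differed together and cannot be told apart. The submitters call the samples biological replicates, and how many embryos made up each is not given in the sources used here.

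The values are MAS5 signals as the authors deposited them, and their trimmed mean was 100 on every array. Median signal was 18.2 to 25.5, and the number of arrays limits the precision. Hybridization spike-ins averaged 2687 and 2768 on positive replicates 1 and 2 and 4989 to 7651 on the other 4 arrays, and Gapdh's 3' probe set was 4.41 and 4.73 times as bright as its 5' one on these 2 arrays against 5.94 to 9.21 times. Values with these 2 low spike-in arrays as a block in the model, called the spike-in block below, are given for each role and for each member whose sign turned. Lmx1a, whose reporter defined the negative gate, had signals of 78.7 to 170 on the positive and 1.81 to 9.75 on the negative arrays. Neurog2 had 500.4 to 706 and 334 to 388. Summed signals of 12 dopaminergic progenitor markers were 2992 to 3391 in the positive and 2183 to 2265 in the negative group, and those of 8 dopaminergic neuron markers 3277 to 4986 and 1245 to 1636. The progenitor list holds Lmx1a and Neurog2, the genes of the reporters, so its sums are not independent of the sorting. Log2 differences of its 11 tested genes ran from -1.06 to 4.95, and 9 lay above 0. Messages of neurons were bright in both groups, with 15 of 15 markers above the filter level on all arrays and summed signals of 19602 to 28641 and 24393 to 28203. Summed signals of 15 radial glia markers were 7262 to 10969 in the positive and 11327 to 14800 in the negative group, of which 13 exceeded the filter level on all arrays. Those of 11 erythroid markers were 944 to 1258 and 8202 to 15572, and those of 12 macrophage markers 62.1 to 95.3 and 426 to 853, with 3 of the erythroid and none of the macrophage markers dim on every array. Of 12 endothelial and mural markers, 5 were dim on every array, and their sums were 131 to 170.4 and 113 to 149.5. The brightest markers of the lists were Tubb3, Vim, Hbb-y, C1qb and Col1a2 for these cell types and Neurog2 and Nr4a2 for the dopaminergic ones. The part of these other cells in the results below was not tested.

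Of the 44 mitosis and spindle genes 1, the cytokinesis gene Arhgap11a, passed the test and was higher in positive cells, and none was lower. Values are log2 differences, positive minus negative, from limma's moderated test over 12042 genes, with the standard error (SE), n = 3 arrays per group and Benjamini-Hochberg adjusted p-values. The threshold was 0.05. The members' share past it was 2.27%, and over all genes tested 1.06% passed, 0.424% higher and 0.639% lower in positive cells. At an unadjusted p under 0.05 there were 3 of 44, Arhgap11a, Racgap1 and Aurkb, or 6.82% against 10.8% of all genes. The first 2 were higher in positive cells, as were 5.68% of all genes, and Aurkb was lower, as were 5.07%. The members' median difference was 0.24, against 0.03 over all genes tested, and 31 of 44 (70.5%) lay above 0, against 52.4%. The lowest was -0.89 (Aurkb) and the highest 1.09 (Arhgap11a).

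The arrays limit what can be said of the other genes. The 95% confidence interval lay within a 2-fold difference either way for 18 of 44 members (40.9%), against 47.7% of all genes tested. It excluded a value 2-fold lower in positive cells for 37 of 44 members, against 8593 of 12042 genes tested. A value 2-fold higher was excluded for 23 members, against 8171 genes. A difference of the size of the median, 0.24, could not be resolved for a single gene with a median SE of 0.33. Signals of the 3 positive arrays all lay above those of the 3 negative arrays for 4 members, Arhgap11a, Top2a, Aspm and Aurka (9.09% against 8.21% of all genes). They all lay below for 1, Aurkb (2.27% against 7.24%). These shares were near or under the background.

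**Figure D1:**
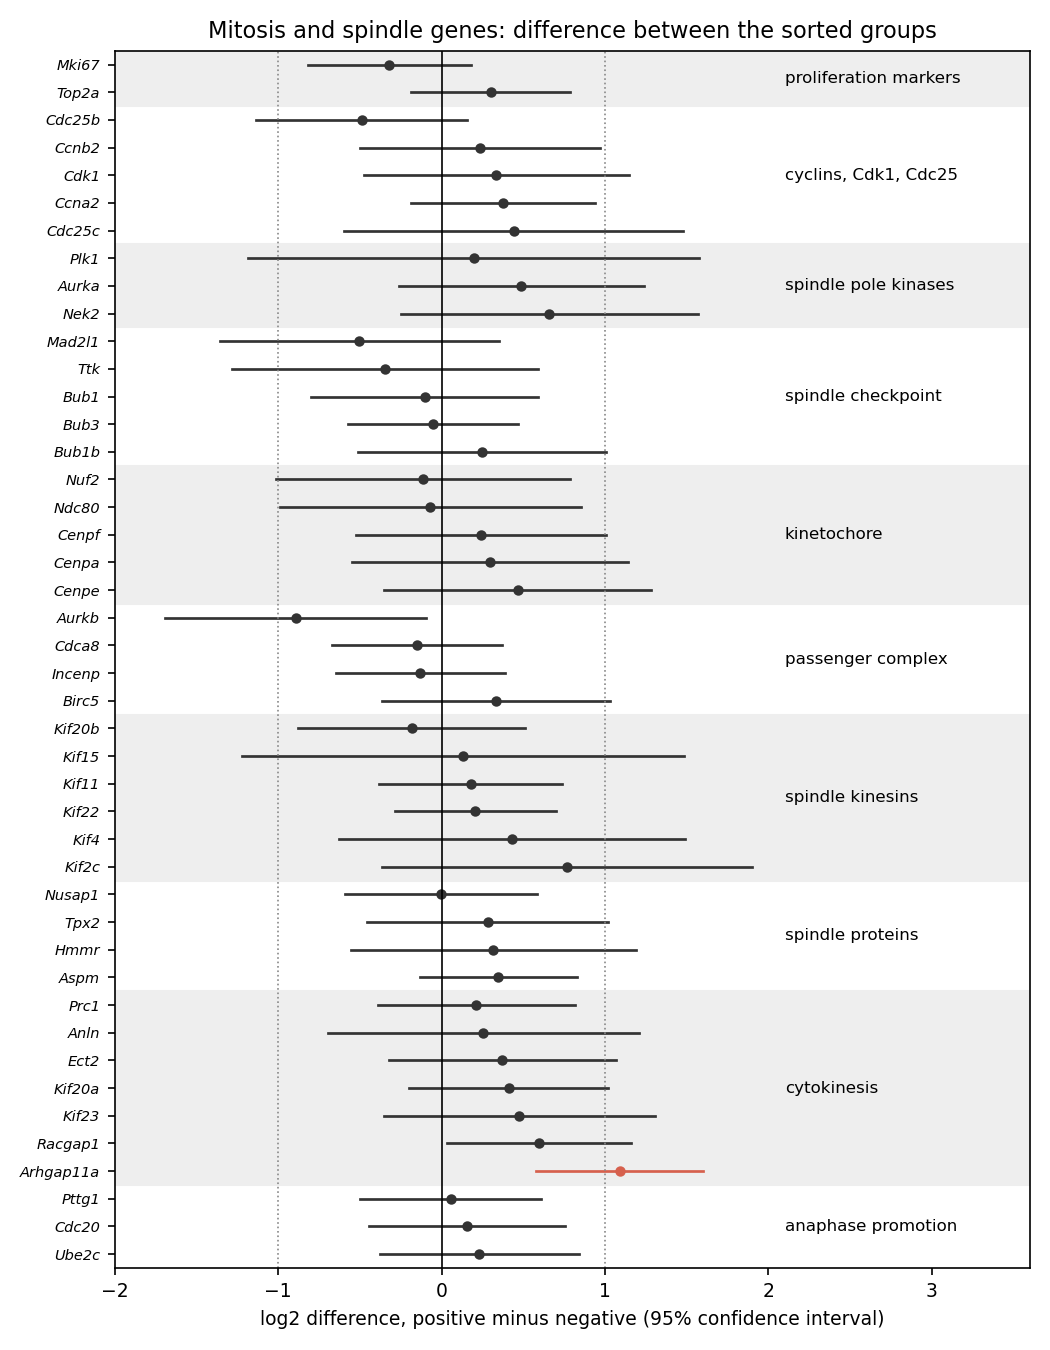
Log2 difference between positive and negative cells for 44 mitosis and spindle genes, grouped by role, with points for the estimate and bars for the 95% confidence interval of the limma fit (n = 3 arrays per group). Dotted lines mark a 2-fold difference either way. Arhgap11a, in red at 1.09, is the gene past the threshold, and 31 of 44 points lie to the right of 0.

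Cytokinesis genes held the only call. Arhgap11a encodes a GTPase activating protein of dividing cells, and its gene lies at chr2:113831492-113848661 (GRCm38). Its signal was 231, 234 and 296 on the positive arrays and 117, 98.9 and 142 on the negative arrays. All positive values exceeded all negative ones, by 2.13-fold on average, a difference of 1.09 (SE 0.24) with a 95% interval of 0.58 to 1.60 and an adjusted p of 0.0489 in the limma fit. The gene has 1 probe set on the array, so no other probe set bears on it. The difference lay between 0.96 and 1.22 without any 1 array, but adjusted p was then 0.0576 to 0.183, so the call was lost without each array in turn. With the low spike-in arrays as a block, where the difference rests on positive replicate 3, it was 1.32 (adjusted p = 0.224).

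The other 6 cytokinesis genes did not pass, and all 7 had values above 0, with a median of 0.41. Racgap1 encodes the partner of the kinesin Kif23 in the centralspindlin complex, which brings Ect2 to the cell equator. Racgap1 had signals of 405, 341 and 259 on the positive arrays and 158, 235 and 278 on the negative arrays. The groups overlapped through positive replicate 3 and negative replicate 3, and the difference was 0.60 (SE 0.26), with an interval of 0.03 to 1.16 and an adjusted p of 0.436 in the limma fit. A further Racgap1 probe set differed by 0.74, at 181, 129 and 97.9 on the positive arrays and 103, 55.7 and 85.7 on the negative arrays. Kif23 had 93.9, 122 and 45.9 on the positive arrays and 50.2, 50.2 and 77.4 on the negative arrays, a difference of 0.48 (SE 0.38). Its values on positive replicates 1 and 2 were the highest, and that on positive replicate 3 was the lowest of all 6. With the spike-in block Kif23 turned to -0.34, Racgap1 was at 0.25 and Kif20a at 0.0053, and the median of the role was 0.25 with 6 of 7 above 0.

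Ect2 differed by 0.37 (SE 0.32) and Kif20a, a kinesin of the central spindle, by 0.41 (SE 0.28). Anillin (Anln), which links actin, myosin and septins in the ring, differed by 0.26 (SE 0.44). Prc1, which bundles antiparallel microtubules between the separating chromosomes, had the lowest difference of the role. Its signals were 136, 86.6 and 105 on the positive arrays and 92.2, 77.4 and 111 on the negative arrays, which overlapped, with a difference of 0.21 (SE 0.28) and -0.11 for its other tested probe set.

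**Figure D2:**
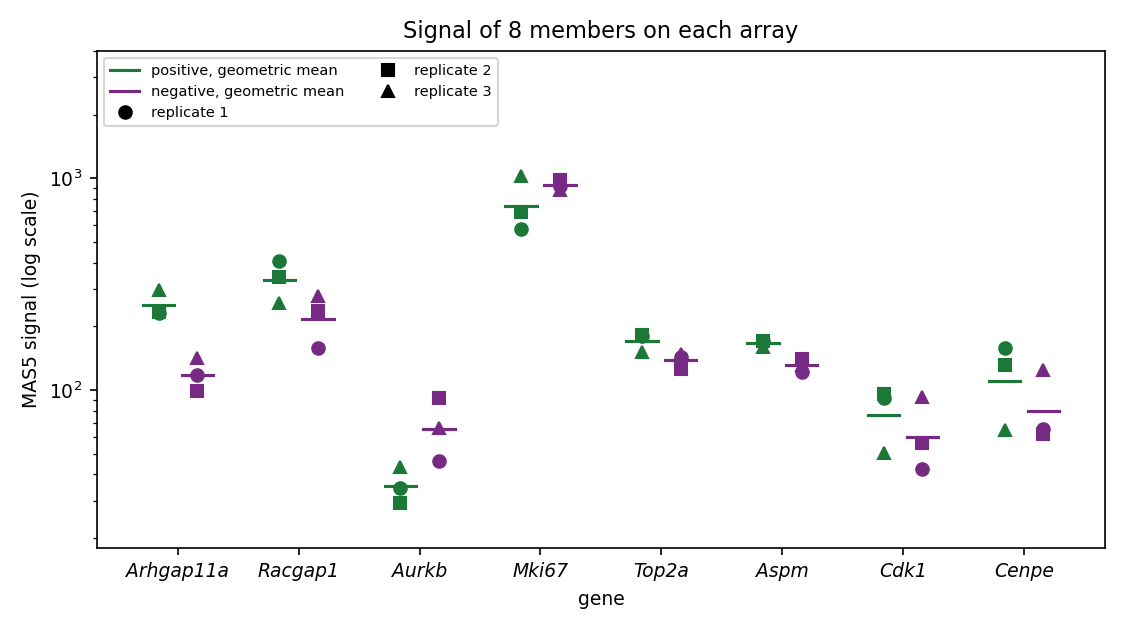
MAS5 signal (log scale) of 8 mitosis and spindle genes on each array. Marker shapes are replicates, colours are groups and short lines are geometric means of 3 arrays. The groups of Arhgap11a, Top2a, Aspm and Aurkb do not overlap, and those of Racgap1, Mki67, Cdk1 and Cenpe do. Signals of different genes come from different probes, so their heights do not rank the genes.

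The shared promoter elements of these genes were read from sequence, which the choice of members had not used. Genes of G2 and mitosis are known to be held silent early in the cycle by the DREAM complex and driven late by the MuvB complex with B-Myb and Foxm1, both of which bind a short element called CHR near the gene start, often with CCAAT boxes bound by NF-Y. Promoter windows of 300 bases, from 250 before to 50 after the start, were available from RefSeq (GRCm38.p6) for 39 of the 46 members, matched by symbol. A gene counts as having a match where any of its windows holds one, and as having both where 1 window holds both. CHR was searched as TTTGAA or TTCGAA and the CCAAT box as CCAAT, on both strands, and 1 CHR match overlapped a CCAAT match in the members. A match to CHR was found in 31 of 39 members (79.5%), against 21.7% of the 27025 genes with a window and 16% of the 9739 with a window that were tested on the arrays. A CCAAT box was found in 29 (74.4%, against 41.1% and 43.2%) and both in 26 (66.7%, against 8.61% and 6.6%). Of 81 other mitosis genes with a window 58% had a CHR match and 64.2% a CCAAT box. Of 36 replication genes 22.2% and 61.1% did. A CCAAT box was also found in 78.6% of 14 genes of cycle exit and 66.7% of 9 neuron markers, so it was not particular to the members.

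The matches also lay close to the start, counted here in 1 window per gene. Of 43 CHR matches in the members, 30 (69.8%) lay within 50 bases of the start on either side, against 25.3% of 1423 matches in the genes tested. Their median position was 2 bases before the start, against 132 bases before it. CCAAT boxes lay further upstream, at a median of 69 bases before the start in the members and 86 in the genes tested. These are matches of letters and not measured binding sites. Windows of 4 members are shown, for Arhgap11a because it passed the test, for Cdk1 and Ccnb2 as the kinase and a cyclin of mitotic entry, and for Mki67 as the marker of cycling cells. Each reads 5′ to 3′ along the gene, with CHR and CCAAT matches (ATTGG where the box is on the opposite strand) in capitals. The windows are chr2:113848612-113848911 on the minus strand, chr10:69352863-69353162 on the minus strand, chr9:70421505-70421804 on the minus strand and chr7:135716330-135716629 on the minus strand.
Arhgap11a: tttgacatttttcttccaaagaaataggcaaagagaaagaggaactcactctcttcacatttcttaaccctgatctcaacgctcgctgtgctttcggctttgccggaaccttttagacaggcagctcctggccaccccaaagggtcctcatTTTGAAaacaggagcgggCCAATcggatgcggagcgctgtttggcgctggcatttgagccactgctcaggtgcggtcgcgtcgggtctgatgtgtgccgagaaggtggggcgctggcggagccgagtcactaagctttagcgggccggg
Cdk1: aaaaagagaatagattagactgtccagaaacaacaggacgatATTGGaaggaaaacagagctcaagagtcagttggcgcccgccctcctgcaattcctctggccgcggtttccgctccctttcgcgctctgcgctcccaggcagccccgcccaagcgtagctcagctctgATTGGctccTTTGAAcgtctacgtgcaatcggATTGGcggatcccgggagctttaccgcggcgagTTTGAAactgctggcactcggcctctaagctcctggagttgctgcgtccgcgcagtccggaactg
Ccnb2: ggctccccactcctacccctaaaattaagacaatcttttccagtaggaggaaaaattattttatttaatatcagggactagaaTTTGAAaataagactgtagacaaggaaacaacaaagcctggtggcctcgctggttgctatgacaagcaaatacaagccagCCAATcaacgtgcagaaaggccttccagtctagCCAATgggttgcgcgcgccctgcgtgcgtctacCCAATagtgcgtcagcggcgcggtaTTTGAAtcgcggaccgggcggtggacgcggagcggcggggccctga
Mki67: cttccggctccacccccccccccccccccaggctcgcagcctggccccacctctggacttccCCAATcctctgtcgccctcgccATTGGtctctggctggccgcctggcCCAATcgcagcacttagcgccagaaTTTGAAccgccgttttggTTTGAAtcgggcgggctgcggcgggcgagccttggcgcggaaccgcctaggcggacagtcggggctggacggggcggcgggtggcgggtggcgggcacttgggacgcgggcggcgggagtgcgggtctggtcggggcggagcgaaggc

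Arhgap11a thus had 1 CHR match with its first base 99 bases before the start and 1 CCAAT box 81 before it. Cdk1 and Ccnb2 each had 2 CHR matches, 1 of them 15 bases before the start of Cdk1 and 1 at base 5 of Ccnb2, with 3 CCAAT boxes each. Members with a CHR match had a median difference of 0.24 (23 of 31 above 0, 1 called), and the 7 tested members without one had 0.06 (4 above 0, none called). Outside the list, 617 other tested genes with both elements had a median of 0.04, with 53.5% above 0 and 9 called, against 0.03, 52.4% and 96 of 9084 for those without both.

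**Figure D3:**
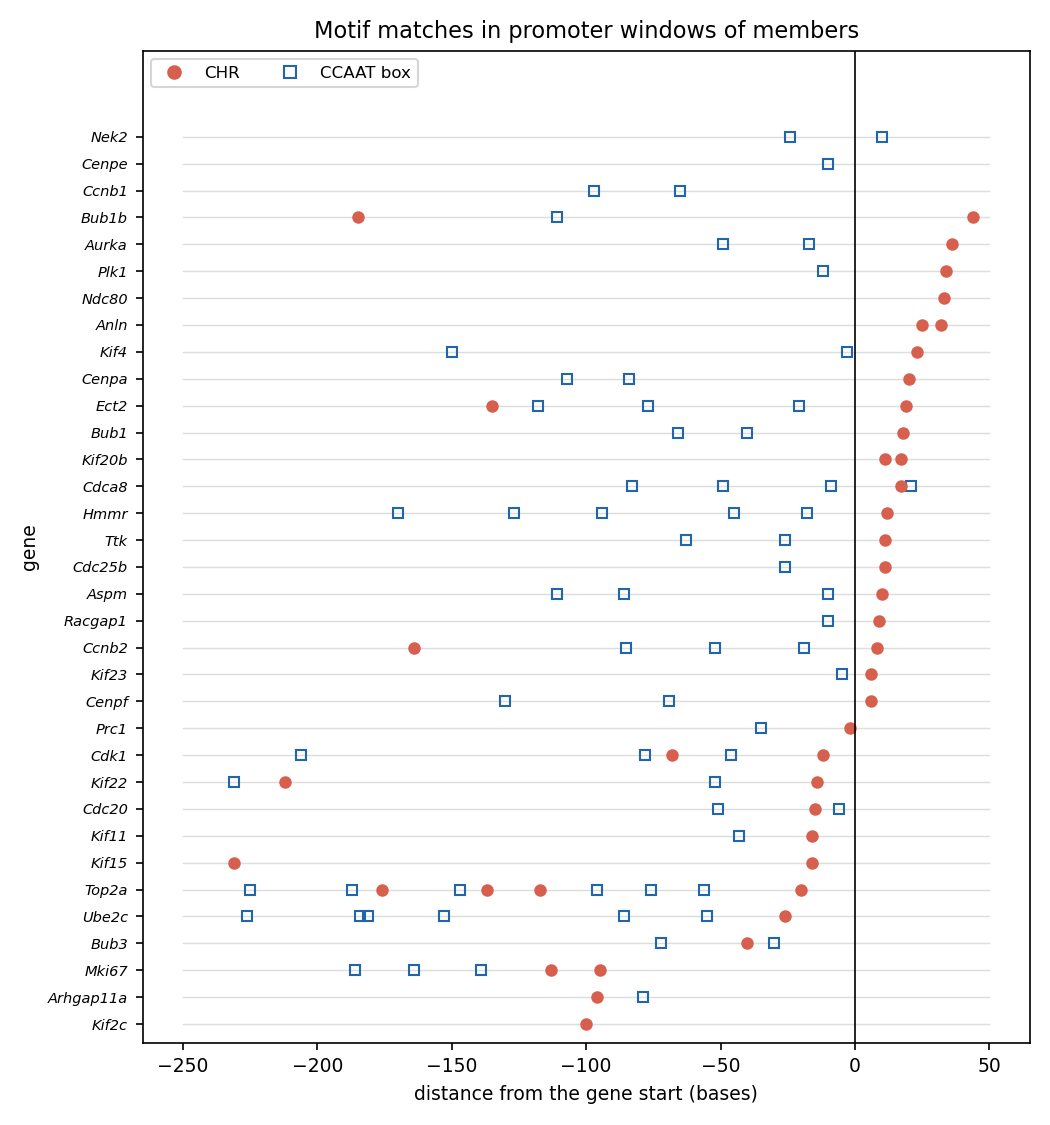
Distance from the gene start, in bases, of CHR matches (filled circles) and CCAAT boxes (open squares) in the promoter windows of 34 members, with 1 window per gene. The other 5 members with a window had neither match. Filled circles gather around the start, where 30 of 43 lie within 50 bases.

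The proliferation markers pointed in opposite directions and neither passed. Mki67, which coats mitotic chromosomes and is the usual marker of cycling cells, had signals of 577, 690.1 and 1021 on the positive arrays and 915, 984 and 879 on the negative arrays. Positive replicates 1 and 2 were the lowest and positive replicate 3 was the highest of the 6, and the difference was -0.32 (SE 0.23), with an interval of -0.82 to 0.18. Top2a, the topoisomerase that untangles sister chromatids, had 181, 183 and 152 on the positive arrays and 144, 126 and 149 on the negative arrays. Its groups did not overlap, although positive replicate 3 and negative replicate 3 were close, and the difference was 0.30 (SE 0.23) (adjusted p = 0.649 in the limma fit). A second, dimmer Top2a probe set differed by 0.70. Mki67 turned to 0.14 with the spike-in block, and Top2a was at 0.13.

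Regulators of mitotic entry overlapped between the groups in every case. The kinase Cdk1 had 91.8, 95.4 and 50.4 on the positive arrays and 42.4, 56.2 and 92.3 on the negative arrays, a difference of 0.34 (SE 0.37). Positive replicates 1 and 2 and negative replicate 3 formed the high values. Its cyclins were high on the same 3 arrays, with Ccna2 at 0.38 (SE 0.26) and Ccnb2 at 0.24 (SE 0.34), and negative replicate 3 second highest for Ccna2 and highest for Ccnb2. The other tested Ccna2 probe set did not share this pattern. It had 90.3, 111 and 103 on the positive arrays and 80.3, 81.6 and 94.3 on the negative arrays. Cdc25c, a phosphatase that activates Cdk1 at mitotic entry, had the highest difference of the role. Its signals were 42.6, 47.6 and 19.5 on the positive arrays and 34.1, 19 and 24.3 on the negative arrays, highest on positive replicates 1 and 2, and the difference was 0.44 (SE 0.48). Cdc25b, a phosphatase that starts Cdk1 activation and is known to be expressed in neurogenic progenitors of the neural tube, had the lowest. Its signals of 74.9, 67.8 and 79.4 on the positive arrays and 113, 136 and 72.4 on the negative arrays overlapped through negative replicate 3, and the difference was -0.49 (SE 0.30), with an interval of -1.14 to 0.16. The direction of the role turned with the spike-in block, to a median of -0.26 with 1 of 5 above 0, and Cdk1 (-0.26), Ccnb2 (-0.09) and Cdc25c (-0.36) changed sign.

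The 3 kinases of the spindle poles had values above 0 with a median of 0.49, and none passed. Aurka, which matures centrosomes, had 52, 67.1 and 51.1 on the positive arrays and 47.8, 30.8 and 43.7 on the negative arrays. The groups did not overlap, but the lowest positive and highest negative values were close, and the difference was 0.49 (SE 0.35) (adjusted p = 0.631 in the limma fit). Nek2, a kinase that splits centrosomes, had 48.7, 95 and 52.8 on the positive arrays and 39, 25 and 63.9 on the negative arrays and a difference of 0.66 (SE 0.42), and its other tested probe set differed by 0.47. Plk1, the polo-like kinase of mitotic entry and exit, was close to the filter level of 10.2 to 15.9. Its signals were 18, 26.7 and 14.2 on the positive arrays and 21.3, 7.16 and 29.8 on the negative arrays, so that both the lowest and the highest value were negative arrays. Its difference of 0.20 (SE 0.64) had an interval of -1.18 to 1.58, which bounds little. With the spike-in block it turned to -0.22, and the median of the role was 0.35.

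Spindle checkpoint genes had a median of -0.10, with 1 of 5 above 0 and none past the threshold. Mad2l1, a subunit of the checkpoint complex that restrains Cdc20, had 75.6, 76.6 and 68.4 on the positive arrays and 52.5, 187 and 114 on the negative arrays. The positive arrays lay close together, within the range of the negative arrays, which differed among themselves by over 3-fold, and the difference was -0.50 (SE 0.39). The checkpoint kinase Ttk differed by -0.35 (SE 0.43), the kinase Bub1 by -0.10 (SE 0.32) and Bub3, which brings Bub1 to kinetochores, by -0.05 (SE 0.24). All 4 tested Bub3 probe sets and both Bub1 probe sets had values below 0, but several of these sets were near the filter level. The Bub3 sets at -0.82 (SE 1.12) and -0.24 (SE 0.61) exceeded it on 4 arrays each, and the Bub1 set at -0.91 (SE 0.76) on 3. Bub1b (BubR1) had the highest difference of the role, with 46.8, 41.5 and 55.8 on the positive arrays and 43.8, 32.2 and 46 on the negative arrays and a difference of 0.25 (SE 0.35), against -0.22 for its other tested probe set. No sign turned in this role with the spike-in block, and the median was -0.28.

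Kinetochore genes had a median of 0.24 and overlapped between the groups in every case. Cenpe, the kinesin that carries chromosomes to the spindle equator, had the highest difference. Its signals were 157, 131 and 64.9 on the positive arrays and 65.4, 62.3 and 125 on the negative arrays, again high on positive replicates 1 and 2 and negative replicate 3, with a difference of 0.47 (SE 0.38). Nuf2, a subunit of the Ndc80 complex that grips microtubules, had the lowest, with 30.9, 31.6 and 24 on the positive arrays and 35, 24 and 35.3 on the negative arrays and a difference of -0.11 (SE 0.41). Its partner Ndc80 differed by -0.07 (SE 0.42) and had 79.9, 80.8 and 28.2 on the positive arrays and 70.3, 66.4 and 44.9 on the negative arrays. The lowest of these 6 values was positive replicate 3, far under the other positive arrays. Cenpf differed by 0.24 (SE 0.35) with the same array lowest, and Cenpa, the histone variant that marks centromeres, by 0.30 (SE 0.39). The direction of the role turned with the spike-in block, where all 5 genes lay below 0 with a median of -0.37. Cenpe (-0.30), Cenpf (-0.64) and Cenpa (-0.11) changed sign, Nuf2 was at -0.37 and Ndc80 at -1.08. These values use 1 probe set per gene, and the block was not fitted to other sets. Another Cenpf set was highest of the positive arrays on replicate 3, with 86.7, 95.5 and 112.6 against 38.9, 113 and 71.5 on the negative arrays. Another Cenpe set had 38.8, 50.1 and 29.4 against 25.4, 6.72 and 38.9. Another Cenpa set had 21.7, 23 and 5.88 against 3.74, 21.5 and 23.9.

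The chromosomal passenger complex, which corrects faulty attachments and then starts cytokinesis, held the lowest value of all members. Its kinase Aurkb had 34.6, 29.4 and 43.2 on the positive arrays and 46.1, 91.6 and 66.4 on the negative arrays. All positive values lay below all negative ones, by 1.86-fold on average, although positive replicate 3 and negative replicate 1 were close. The difference was -0.89 (SE 0.37), with an interval of -1.69 to -0.09, and did not pass (adjusted p = 0.398 in the limma fit). The other Aurkb probe set differed by -0.75, with overlapping groups. The partners of the kinase did not share this size of difference. Birc5 (survivin) had 51.7, 73.4 and 84.8 on the positive arrays and 56.3, 45.5 and 62.3 on the negative arrays and 0.34 (SE 0.32), Cdca8 (borealin) differed by -0.15 (SE 0.24) and the scaffold Incenp by -0.13 (SE 0.24). Probe sets disagreed for both of the latter: the other tested sets differed by 0.94 and -0.06 for Cdca8 and by 0.74 for Incenp. The Incenp set had 79.2, 79.8 and 72.4 on the positive arrays and 33, 45 and 66.5 on the negative arrays, without overlap. The brightest sets of Cdca8 and Incenp and both sets of Aurkb are of the _s_at and _x_at kinds, whose probes can match several transcripts. Without such sets no Aurkb value was left. Cdca8 (0.23) and Incenp (0.22) changed sign with the spike-in block, so that 3 of 4 lay above 0, and Aurkb was at -0.60.

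Spindle kinesins had a median of 0.19, with 5 of 6 above 0 and none past the threshold. Kif2c, which takes microtubules apart at centromeres, had the highest difference and the widest spread. Its signals were 60.7, 66.9 and 136 on the positive arrays and 115, 22.1 and 43.8 on the negative arrays, with the 2 highest values on 1 array of each group, and the difference was 0.77 (SE 0.52), with an interval of -0.37 to 1.90. Its other tested probe sets differed by 1.66 (SE 0.65), without overlap, and -1.06 (SE 1.33), with overlap. They exceeded the filter level on 4 and 3 arrays, so the set of opposite sign was dim and bounds little. Kif20b, needed in neural progenitors for abscission, had the lowest, with 55.4, 66.6 and 48 on the positive arrays and 52, 81.9 and 60.7 on the negative arrays and -0.18 (SE 0.32). Kif11, the motor that pushes spindle poles apart, differed by 0.18 (SE 0.26) with an interval of -0.38 to 0.74, and Kif22, which pushes chromosome arms to the equator, by 0.21 (SE 0.23). Kif15, a backup of Kif11, differed by 0.13 (SE 0.63) and the chromosome motor Kif4 by 0.43 (SE 0.49), both with at least 1 array under the filter level. With the spike-in block the median of the role was 0.09 with 3 of 6 above 0, and Kif11 (-0.00076) and Kif22 (-0.06) changed sign.

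Of 4 non-motor spindle proteins 3 had values above 0 and none passed. Aspm, a spindle pole protein that keeps progenitor divisions symmetric and whose loss causes microcephaly, had 169.7, 171 and 159 on the positive arrays and 122, 139.5 and 132 on the negative arrays. The groups did not overlap and each was tight, and the difference was 0.35 (SE 0.22) (interval -0.13 to 0.83, adjusted p = 0.588 in the limma fit). All 5 Aspm probe sets lay above 0, from 0.16 to 0.53. Nusap1, which bundles spindle microtubules, had 86.6, 99.3 and 83.9 on the positive arrays and 82.9, 78.4 and 112 on the negative arrays. This was the difference closest to 0 of all members, at -0.00 (interval -0.59 to 0.58). Tpx2, which activates Aurka, differed by 0.28 (SE 0.34) and Hmmr, a microtubule protein of spindle poles, by 0.32 (SE 0.40). Other tested Hmmr probe sets differed by 0.45, 0.02 and -0.60. The last had 22, 12.8 and 22.4 on the positive arrays and 26.3, 31.7 and 26.3 on the negative arrays, without overlap. Tpx2 turned to -0.22 with the spike-in block, and the median of the role was 0.09 with 2 of 4 above 0.

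Genes of anaphase promotion, each by its brightest tested probe set, had intervals within a 2-fold difference either way in 3 of 3 cases. Ube2c, the ubiquitin conjugating enzyme of the anaphase promoting complex, had 199, 184 and 158 on the positive arrays and 138, 112 and 231 on the negative arrays and a difference of 0.23 (SE 0.28). Pttg1 (securin), which holds separase inactive, had 655, 817 and 791 on the positive arrays and 529, 661 and 1076 on the negative arrays and 0.06 (SE 0.26). Negative replicate 3 was the highest array for both. The other tested Pttg1 sets differed by 0.40 (SE 0.32) and 0.29 (SE 0.31), and the first of these was highest on positive replicate 2. Cdc20, the activator of the complex, differed by 0.16 (SE 0.28). The other tested Cdc20 probe set differed by 1.27 (SE 0.86). It had 61.3, 45.9 and 5.53 on the positive arrays and 5.35, 15.4 and 13.4 on the negative arrays. With the spike-in block no sign turned among these 3, and their median was 0.05. Over all roles, 26 members had more than 1 tested probe set. In 20 of them the probe sets had 1 sign, and in 6 (Bub1b, Cdca8, Hmmr, Incenp, Kif2c and Prc1) both signs.

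The members' levels also differed among arrays of 1 group. For each gene the log2 signal on an array was taken relative to its mean over the 6 arrays, and the median over the 44 genes was formed. It was 0.11, 0.17 and -0.08 on positive replicates 1, 2 and 3, and -0.11, -0.38 and 0.16 on negative replicates 1, 2 and 3. Over all genes tested these medians were 0.00 to 0.05 on every array. The groups overlapped, since negative replicate 3 lay with positive replicates 1 and 2. Negative replicate 2 was the lowest array for 22 of 44 members (50%), against 22.5% of all genes tested, and positive replicate 2 was the highest for 13 (29.5%, against 17.7%). Without negative replicate 2 the median difference of the members was 0.09 in place of 0.24. Erythroid marker sums on negative replicates 1, 2 and 3 were 13463, 15572 and 8202, so the negative array with the lowest members had the highest sum and the array with the highest members the lowest. Radial glia sums there were 11327, 13166 and 14800. The part of either in the members' levels was not tested.

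**Figure D4:**
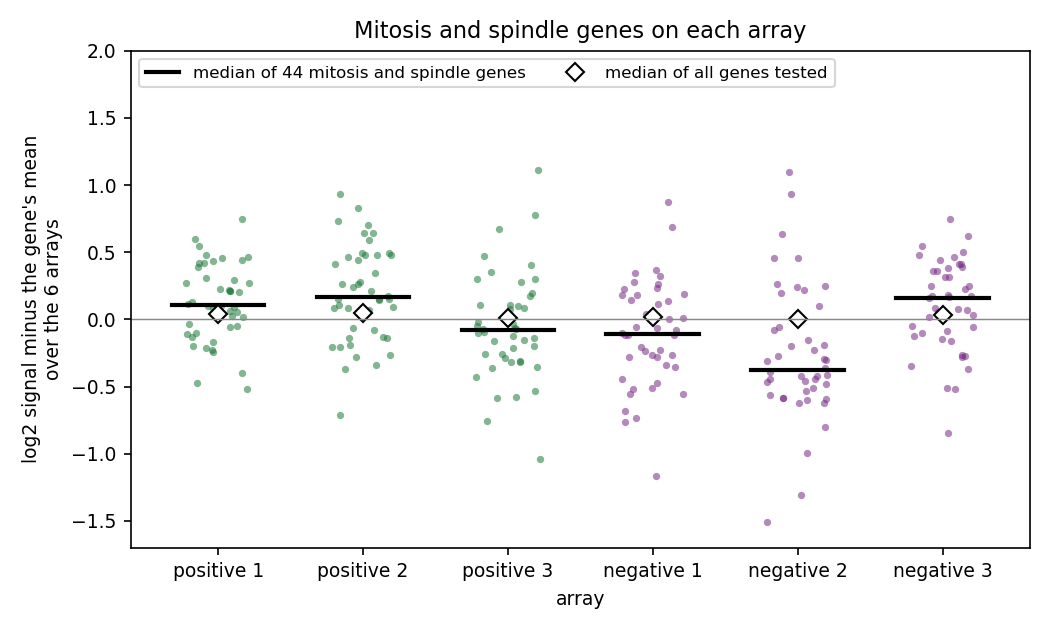
Log2 signal of 44 mitosis and spindle genes on each array, relative to each gene's mean over the 6 arrays. Points are genes, bars are the median of the 44 genes and diamonds the median of all genes tested. The bars run from -0.38 on negative replicate 2 to 0.17 on positive replicate 2, while the diamonds stay between 0.00 and 0.05.

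The excess of members above 0 was not seen without the 2 low spike-in arrays. Positive replicates 1 and 2 exceeded positive replicate 3, by the mean of the former, for 30 of 44 members (68.2%, against 52.2% of all genes tested), with a median of 0.24. Ndc80 (1.51), Cenpf (1.32), Kif23 (1.22), Cdc25c (1.21) and Cenpe (1.15) had the largest such gaps. These come from the brightest tested probe set of each gene. The other tested set had 70.4, 81.9 and 35.7 on positive replicates 1, 2 and 3 for Kif23 and 38.8, 50.1 and 29.4 for Cenpe. For Cdc25c it had 15.9, 12.9 and 11.9, a smaller gap. For Cenpf it was highest on positive replicate 3 (86.7, 95.5 and 112.6). The 4 genes of the chromosomal passenger complex all went the other way, by -0.56 to -0.44, as did Mki67 (-0.69), Ect2 (-0.73) and Kif2c (-1.09). With the low spike-in arrays as a block the members' median was 0.01, 23 of 44 lay above 0 (52.3%, as did 52.3% of all genes) and none passed in the limma fit. The sign turned for 14 of 44. With the block Arhgap11a was at 1.32 and Ndc80 at -1.08. That fit compares positive replicate 3 with the 3 negative arrays and assumes that this array varies like the others. The part of the spike-in level in these values was not tested.

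**Figure D5:**
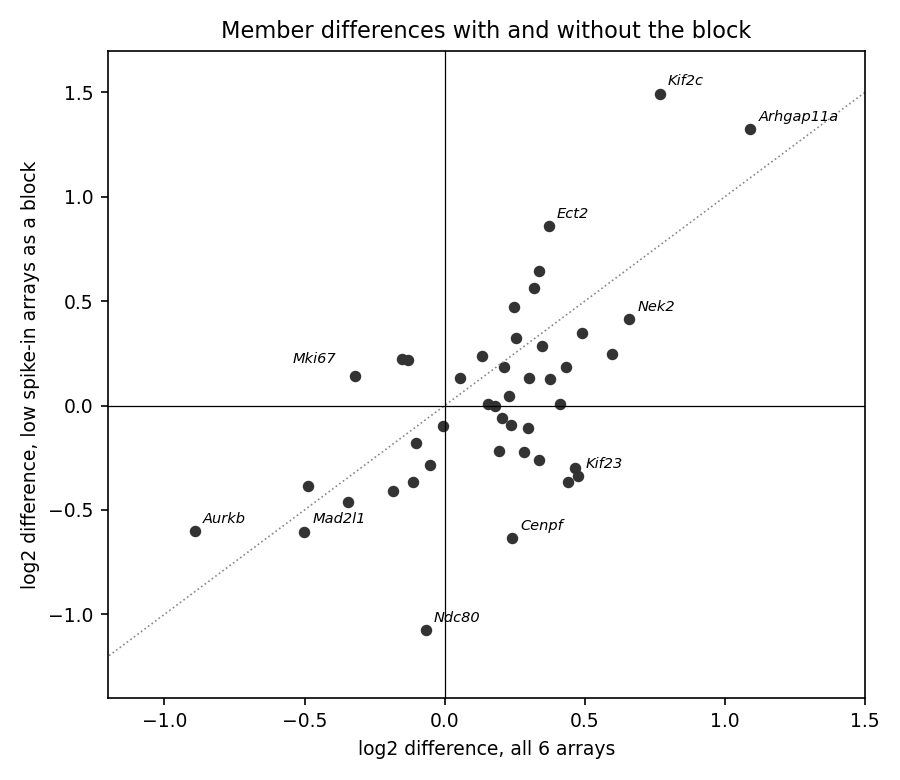
Log2 difference of 44 mitosis and spindle genes in the fit on all 6 arrays (horizontal) and with the 2 low spike-in arrays as a block (vertical), where positive replicate 3 is compared with the negative arrays. The dotted line marks equal values, and each gene is shown by its brightest tested probe set. Arhgap11a and Kif2c lie high in both, Ndc80 and Cenpf drop with the block, and 23 of 44 points lie above 0 on the vertical axis against 31 on the horizontal one.

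Other genes of mitosis, a further 101 names chosen by function, were read in the same way. Of 87 tested, none passed in the limma fit and 7 had an unadjusted p under 0.05 (8.05%, against 10.8% of all genes), 3 of them higher and 4 lower in positive cells. Their median was 0.10, with 52 above 0. The highest was Nsl1, a kinetochore protein with signals near the filter level (1.53, SE 1.07). The lowest was H2ax, a histone variant of the DNA damage response. Its signals were 150.2, 143 and 122 on the positive arrays and 278, 177 and 245 on the negative arrays, without overlap, and its difference was -0.73 (SE 0.24). Array medians of this list were 0.11, 0.07 and 0.06 on the positive and -0.12, -0.19 and 0.15 on the negative arrays, so negative replicate 2 was lowest and negative replicate 3 highest here too.

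DNA replication genes, which act earlier in the cycle, had a median of 0.00 over 42 tested. None passed in the limma fit, 21 lay above 0 and 1, the replicative helicase subunit Mcm2, had an unadjusted p under 0.05 (-0.88, SE 0.26). The highest was the licensing factor Cdc6 (0.72, SE 0.47) and the lowest the chromatin assembly subunit Chaf1b (-1.64, SE 0.87). On negative replicate 2 the replication median was 0.01, where that of the members was -0.38, and on negative replicate 3 it was 0.17. Of 19 tested genes of cycle exit and G1 control, 1 passed and was higher in positive cells. This was Ccnd2, a D-type cyclin of G1 progression, with signals of 606, 754 and 901 on the positive arrays and 305, 429 and 284 on the negative arrays. The groups did not overlap and the difference was 1.16 (SE 0.23, adjusted p = 0.031 in the limma fit). Cdkn1c (p57), a Cdk inhibitor of cells leaving the cycle, differed by 0.60 (SE 0.22, adjusted p = 0.344 in the limma fit) without overlap, and the lowest, the p53 target Trp53inp1, by -0.50 (SE 0.21). The median of the list was -0.07.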

How the data were processed

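RNA of 6 samples was labelled with biotin and hybridised to 1 array each, per the labels' protocols. The intensity values deposited by the authors are linear MAS5 signals of 45101 probe sets. The submitters' processing notes name MAS5, R 2.14.2 and limma, the last with no stated role, and give neither its version nor that of MAS5. The platform annotation listed 1 gene symbol for 34945 probe sets, several for 932 and none for 9160, besides 64 controls. Signals under 1 were set to 1 before log2 was taken. Probe sets entered the test when at least 3 arrays were above their own 40th percentile, and the brightest such probe set by mean log2 signal stood for its gene. Differences were fitted in R 4.3.3 by lmFit and eBayes (with a trend) of limma 3.58.1, two-sided, with 4 residual degrees of freedom and Benjamini-Hochberg adjustment over all 12042 genes, after the fit was tested on simulated data. "Dim" means not above the filter percentile. Members, lists and tests were chosen with earlier results of these data known. Signals on all 6 arrays are given for Mki67, Top2a, Cdk1, Aurkb and Plk1, the highest and lowest member of each role and members without overlap; of other lists the highest and lowest gene and those past the threshold are named. Racgap1, Kif23, Ndc80, Mcm2, Cdkn1c and the signals of further probe sets were added after their values were seen. Matplotlib 3.10.9 under Python 3.11.15 drew the plots.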

Additional observations from a re-analysis of the deposited data

How the results depend on the processing

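Without filter or trend, with the low spike-in arrays as a block, and on the 4 other arrays alone (added after the data were seen), 19, 41, 34 and 40 genes passed in all, against 128, and 57 to 418 passed without 1 array. The highest count, 418, came when positive replicate 3 was left out, so that all remaining positive arrays had a low spike-in level and all negative arrays did not. Without filter 3 of 19 genes were higher, and with the block 8 of 34. The number of members past the threshold was 0 in place of 1 with quantile normalization, median centring, no filter, no trend, each probe set counted, the replicate block, the spike-in block or the 4 arrays, and 0 to 0 without any 1 array. Arhgap11a kept its direction in all 18 alternatives and passed in 4 of them, and no other member passed in any. The members' median was 0.0059 with the spike-in block, 0.0053 on the 4 arrays (43 members tested) and 0.09 to 0.35 without 1 array. Both spike-in alternatives compare positive replicate 3 with the 3 negative arrays, so their agreement is no further check. No other mitosis gene passed in any alternative. Replicate numbers did not pair the samples: same-numbered arrays deviated with correlations of 0.14, -0.10 and 0.03, and with the replicate block 127 genes passed in all, with Arhgap11a at an adjusted p of 0.053. In both spike-in alternatives the sign turned for 14 members: Ccnb2 (-0.091), Cdc25c (-0.36), Cdca8 (0.23), Cdk1 (-0.26), Cenpa (-0.11), Cenpe (-0.30), Cenpf (-0.64), Incenp (0.22), Kif11 (-0.00076), Kif22 (-0.061), Kif23 (-0.34), Mki67 (0.14), Plk1 (-0.22) and Tpx2 (-0.22). Without 1 array it turned for 12, none of them called: Bub3 (-0.26 to 0.13), Cdc20 (-0.098 to 0.29), Cdca8 (-0.34 to 0.0099), Cenpf (-0.017 to 0.68), Kif11 (-0.0061 to 0.28), Kif15 (-0.26 to 0.40), Kif4 (-0.040 to 0.75), Ndc80 (-0.32 to 0.44), Nuf2 (-0.30 to 0.013), Nusap1 (-0.10 to 0.15), Plk1 (-0.41 to 0.62) and Pttg1 (-0.17 to 0.34). With all tested probe sets of a gene averaged Cdca8 (0.24) and Incenp (0.30) turned, without _s_at, _x_at and _a_at probe sets Cdca8 (0.94) and Incenp (0.74), and with quantile normalization Cdca8 (0.013). The cause of these changes was not tested. Signals near the filter level limit Plk1, Kif15 and Kif4 most.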
